A study of Mus musculus with 7 samples.

Results

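The subunits of the mitochondrial respiratory chain were compared between splenic CD11c+ cells of wild-type and Atg16l1 hypomorph mice after a transplant, complex by complex. Genes were taken by symbol: those that start with Ndufa (but not Ndufaf), Ndufb, Ndufc, Ndufs or Ndufv, with Uqcr, with Cox4 to Cox8 or with Atp5, together with Sdha, Sdhb, Sdhc, Sdhd, Cyc1 and Cycs. Each gene was read from 1 probe set, a group of short probes for 1 transcript: the one with the highest mean over all 7 arrays among those that name that gene alone. This gave 81 of 12393 genes on the array, with 34 in complex I, 4 in complex II, 9 in complex III, 1 for cytochrome c, 16 in complex IV and 17 in complex V. A total of 90 protein-coding genes matched the symbols, and 9 were not analysed here. Among these, Ndufa11, Ndufb4, Ndufb4b, Ndufb4c and Ndufs6 lay on probe sets shared with other genes. Chain subunits that the mitochondrial DNA encodes do not carry these symbols and were not part of the comparison.

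The wild-type group had 4 arrays and the hypomorph group 3, each from CD11c+ cells enriched from spleen with magnetic beads on day 7 after a transplant of blood-forming stem cells from a genetically different donor (allo-HSCT). The labels give C57BL/6J as the background of every sample, and the age of the mice as 8 weeks in the design text and 9 weeks in the sample protocol. Atg16l1 encodes a protein needed to build autophagosomes, the vesicles that carry cell material to lysosomes, and a hypomorphic allele leaves part of a gene's function. The labels do not say whether the recipient, the donor or both carried the allele, nor in which of the collected cells it acted, and enrichment with beads leaves other cells in the sample. No label states that the arrays stand for separate animals. The p-values then measure only the spread between these samples, which may be technical.

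The respiratory chain sits in the inner mitochondrial membrane. Complexes I and II take electrons from NADH and succinate, complex III passes them to the carrier cytochrome c, complex IV hands them to oxygen, and the proton gradient that builds up drives complex V, the ATP synthase. Complex II is also an enzyme of the citric acid cycle. Dendritic cells and macrophages draw on this chain at rest, and autophagy of mitochondria (mitophagy) is one route by which cells remove damaged chains.

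Values are log2 expression values as the authors deposited them, so a difference of 1 is a doubling of signal. The quartiles of the arrays were nearly equal, with medians between 5.46 and 5.53, and each array correlated with the rest at a mean r of 0.990 to 0.993. Atg16l1 itself read 7.42, 7.33, 7.26 and 7.20 in wild-type replicates 1 to 4 and 6.86, 6.76 and 6.94 in hypomorph replicates 1 to 3, so that every hypomorph array lay below every wild-type array. Its change of -0.45 did not pass either (limma adjusted p = 0.462). The dendritic cell markers had a median change of 0.05 over 7 of 8 listed genes, with Itgax, which encodes CD11c, at 8.24 in wild type, against 8.29 in the hypomorph. They were split in direction, with 3 below 0 (lowest Zbtb46 at -0.33) and 4 above 0 (highest Cd74 at 0.09). Over all genes, 50.8% had a change below 0. Markers of other cells were present as well: all 10 of the red pulp macrophage markers had a change above 0 (median 0.29), and all 8 measured erythroid markers had one below 0 (median -0.75). In bulk samples, fewer cells of a type and less RNA per cell cannot be told apart.

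No respiratory chain gene passed the test between the genotypes. With limma and Benjamini-Hochberg adjustment over all 22625 probe sets, 0 of 81 had an adjusted p under 0.05, against 0.0% of probe sets on the whole array, and the smallest adjusted p among them was 0.644. At an unadjusted limma p under 0.05, 5 genes were lower in the hypomorph, against a share of 3.59% over all genes, and 0 were higher, against 3.57%. The 5 were Ndufv1, Ndufb6 and Ndufb7 of complex I, Cyc1 of complex III and Atp5a1 of complex V. In 6 genes (Ndufv1, Ndufb6, Ndufb7, Uqcrc2, Atp5c1 and Atp5d) each of the 3 hypomorph values was lower than each of the 4 wild-type values, against 2.72% of all genes. They were higher in 0 genes, against 2.43%. The count of 5 rested on single arrays and on the choice of probe set. It was 0 without hypomorph replicate 3 (3.52% of all genes) and 1 with the mean over a gene's probe sets (3.13%).

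The differences were small and leaned to one side. The change was below 0 in 58 of 81 genes, or 71.6%, against 50.8% of all genes, and the median change was -0.04 against 0.00 over all genes. This count was added after the values were seen, and the genes share their 7 arrays, so it is a description and was not tested. Most of the 81 genes are bright, and brighter genes in general leaned the same way. With probe sets below the median level left out, 56 of 76 respiratory chain genes were below 0, against 56.6% of 6898 genes. The medians were then -0.04 and -0.02. The 95% confidence interval of the change lay within 0.5 of 0 on the log2 scale in 80 of 81 genes, the exception being Cox6b2. Intervals reached a median of 0.19 to each side of the estimate, with a lowest of 0.133 and a highest of 0.931, and the number of arrays limits this precision. The lean also depended on single arrays. Without hypomorph replicate 3, 47 of 81 genes were below 0 (median -0.02), against 51.9% of all genes. Without wild-type replicate 1 there were 48 (median -0.01), against 48.7%, and without hypomorph replicate 1 there were 71 (median -0.07), against 50.9%. With all 7 arrays kept and array weights used, there were 48 (median -0.02), against 49.9%.

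**Figure D1:**
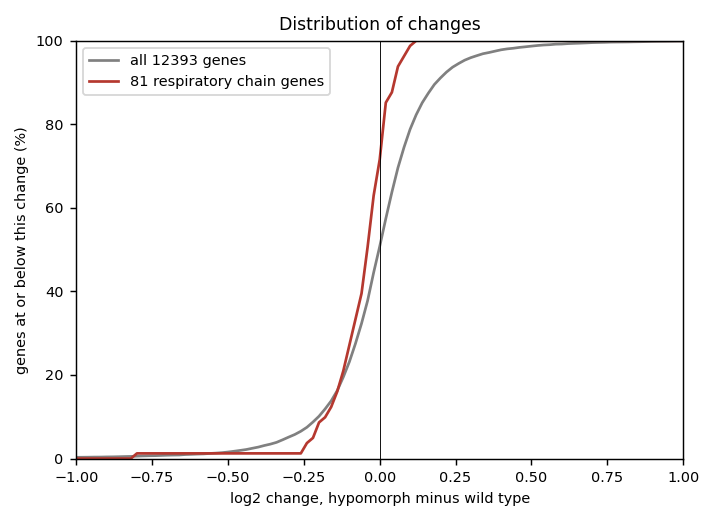
Share of genes (vertical axis, percent) at or below each log2 change, hypomorph minus wild type (horizontal axis), for all 12393 genes in grey and the 81 respiratory chain genes in red. The red curve crosses 0 at 71.6% and the grey one at 50.8%, and the red curve is steeper, with Cox6b2 alone at its far left.

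Some marker lists of other cells also had changes below 0, and others had changes above 0. All 9 measured proliferation markers were below 0 (median -0.41). The log2 of their summed signal, to which bright genes add most, was 13.17 to 13.32 in wild type and 12.54 to 13.25 in the hypomorph. All 7 measured neutrophil markers were below 0 too (median -0.53), with the log2 of their summed signal at 15.76 to 15.90 and 15.18 to 15.89. The median over the 81 genes was 0.06, 0.03, -0.07 and -0.02 on the wild-type arrays and 0.01, -0.06 and -0.09 on the hypomorph arrays. The neutrophil list had -0.20, -0.01, 0.07 and 0.04, then -0.64, -0.69 and 0.05. Of the pancreatic acinar markers, 7 of 8 measured were below 0 (median -2.12). Their array medians were -1.94, -0.72, 0.88 and 1.74 in wild type, against -2.66, -2.63 and -0.73 in the hypomorph. All 5 plasma cell markers had changes above 0 (median 0.42). The part of these cells in the lean was not tested.

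A pair of arrays stood at the ends of the range for many of the genes. Wild-type replicate 1 gave the highest value of all arrays in 35 of 81 genes (43.2%, against 20.8% of all genes). Hypomorph replicate 3 gave the lowest in 32 (39.5%, against 18.5%). Hypomorph replicate 1 did not follow the other hypomorph arrays and was the highest array in 21 genes (25.9%, against 15.4%). On the same arrays the difference between 3' and 5' control probe sets for Gapdh, a measure of RNA integrity, was 0.25, 0.22, 0.18 and 0.15 in wild type, against 0.10, 0.05 and 0.15 in the hypomorph. For actin it was 0.54, 0.47, 0.49 and 0.40 in wild type, against 0.41, 0.36 and 0.39 in the hypomorph. Both were highest on wild-type replicate 1, and their part in the results was not tested.

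Promoter stretches of 4 of the genes follow, because many nuclear genes of the respiratory chain are known to share binding sites for a few transcription factors. They are Ndufv1, which had the smallest p, Ndufb6, which had the next smallest and several motifs, Cycs, the carrier between complexes III and IV, and Cox6b2, which had the largest difference. The genes and motifs were picked after the expression values were seen, and Ndufb6 and Cycs also after their matches were seen. Each stretch is the 250 bases before the annotated start, from RefSeq on GRCm38.p6, printed 5′ to 3′ on the gene's strand, which is the minus strand for all 4. They lie at chr19:4012756-4013005, chr4:40279422-40279671, chr6:50566570-50566819 and chr7:4753095-4753344, in this order. Capitals mark matches on either strand to CATGCGC (NRF1), CCGGAAG (GABP), AAGATGG (YY1) or GGGCGG (SP1), and matches that overlap were kept.
Ndufv1: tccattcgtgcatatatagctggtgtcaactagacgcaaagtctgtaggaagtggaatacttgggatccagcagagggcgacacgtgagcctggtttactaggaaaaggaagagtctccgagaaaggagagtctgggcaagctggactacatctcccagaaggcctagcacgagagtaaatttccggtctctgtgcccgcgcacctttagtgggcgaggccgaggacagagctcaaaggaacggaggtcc
Ndufb6: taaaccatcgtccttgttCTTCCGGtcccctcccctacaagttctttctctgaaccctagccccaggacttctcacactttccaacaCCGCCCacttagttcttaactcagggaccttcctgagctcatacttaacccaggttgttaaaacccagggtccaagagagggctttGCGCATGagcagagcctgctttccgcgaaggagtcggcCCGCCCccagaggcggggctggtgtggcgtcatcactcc
Cycs: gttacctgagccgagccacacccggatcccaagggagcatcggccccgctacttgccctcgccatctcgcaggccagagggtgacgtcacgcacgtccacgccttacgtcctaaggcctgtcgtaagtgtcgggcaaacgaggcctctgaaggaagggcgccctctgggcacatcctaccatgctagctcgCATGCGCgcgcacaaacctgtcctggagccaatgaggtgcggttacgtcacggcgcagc
Cox6b2: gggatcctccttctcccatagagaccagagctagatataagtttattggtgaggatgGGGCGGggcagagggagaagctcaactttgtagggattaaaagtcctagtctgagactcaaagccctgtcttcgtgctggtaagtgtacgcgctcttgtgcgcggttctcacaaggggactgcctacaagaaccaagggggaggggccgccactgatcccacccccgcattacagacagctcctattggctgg
The Ndufv1 stretch held no match, Ndufb6 held 1 of GABP, 1 of NRF1 and 2 of SP1, Cycs held 1 of NRF1 and Cox6b2 held 1 of SP1. Windows of 300 bases (250 before to 50 after the start) were found for 66 of the 81 genes, with 71 windows in all. The NRF1 letters occurred in 18.3% of these windows and in 4.8% of the 21262 windows of protein-coding genes. GABP letters occurred in 23.9% against 11.6%, YY1 letters in 14.1% against 6.24% and SP1 letters in 40.8% against 46.2%. A match of letters is no evidence of a bound site, and these shares were not set against the expression differences.

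Complex I, the NADH dehydrogenase, had 28 of its 34 genes below 0 in the hypomorph, with a median change of -0.04. It was -0.09 without hypomorph replicate 1, and the fall was smaller with some other array left out, as the closing section gives. The medians of single arrays, each gene taken relative to its wild-type mean, were 0.07, 0.05, -0.07 and -0.01 in wild type, against -0.01, -0.07 and -0.12 in the hypomorph. These overlapped, since the lowest wild-type array lay below the highest hypomorph array. Hypomorph replicates 2 and 3 were the lowest of the 7 arrays. By role, a grouping drawn up after the values were seen, all 6 measured core subunits (Ndufv1, Ndufv2, Ndufs1, Ndufs3, Ndufs7 and Ndufs8), most of which hold the flavin or iron-sulfur centres, had changes below 0 on the probe set used, with a median of -0.09. So did 8 of the 10 Ndufb genes, accessory subunits of the membrane arm (median -0.11), and 14 of the 18 other accessory subunits (median -0.04).

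Ndufv1 encodes the subunit that binds NADH and the flavin. Its values were 9.86, 9.77, 9.71 and 9.68 in wild type, against 9.59, 9.55 and 9.45 in the hypomorph. Every hypomorph array lay below every wild-type array, with the gap between the groups smaller than the range within either. The means were 9.75 ± 0.0812 (SD, n = 4) and 9.53 ± 0.0764 (SD, n = 3), a change of -0.22 (95% interval -0.39 to -0.05, limma unadjusted p = 0.0165, adjusted p = 0.644). Its other probe sets had changes of -0.18, with touching groups, and -0.02.

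Ndufb6 is an accessory subunit of the membrane arm. It read 9.63, 9.53, 9.52 and 9.40 in wild type, against 9.38, 9.30 and 9.26 in the hypomorph, again without overlap but with wild-type replicate 4 close to hypomorph replicate 1. The change was -0.20 (-0.38 to -0.03, limma adjusted p = 0.644), whereas the other probe set of the gene had a change of 0.04. Ndufb7, another accessory subunit, had 10.68, 10.38, 10.35 and 10.47 in wild type, against 10.31, 10.10 and 10.24 in the hypomorph. Wild-type replicate 1 stood high and the groups did not overlap, and its second probe set, with overlapping groups, had a change of -0.08 against -0.25 (-0.48 to -0.02) here.

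Ndufs1, the largest iron-sulfur subunit, read 9.06, 9.21, 9.08 and 9.28 in wild type, against 8.94, 9.08 and 8.91 in the hypomorph. Hypomorph replicates 1 and 3 were below all wild-type arrays, and replicate 2 lay among them (change -0.18, interval -0.37 to 0.01). Ndufc1, a small accessory subunit, had the same order of hypomorph arrays at 9.45, 9.56 and 9.33 against 9.59, 9.67, 9.53 and 9.65, with a change of -0.16, and its other probe set had a change of -0.01. The remaining 29 genes of complex I, of which 23 were below 0, ran from -0.21 (Ndufb2) to 0.11 (Ndufb1). The 0.11 of Ndufb1 came from hypomorph replicate 1, at 7.20 against 6.86 on both other hypomorph arrays. Of the other core subunits, Ndufs3 had a change of -0.02 and Ndufs7 of -0.03, with 0.02 on its other probe set. Ndufs8 had a change of -0.15, but its 6 probe sets ran from -0.16 to 0.07, with 4 below 0. Ndufv2, an iron-sulfur subunit beside Ndufv1, had a change of -0.03, but its other probe sets had -0.22 and -0.14, both without overlap. Ndufb9 had a change of -0.09, while another of its probe sets had -0.27 without overlap (10.34, 10.18, 10.08 and 10.12 in wild type, against 9.91, 9.94 and 9.86 in the hypomorph, limma unadjusted p = 0.0095, adjusted p = 0.644).

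**Figure D2:**
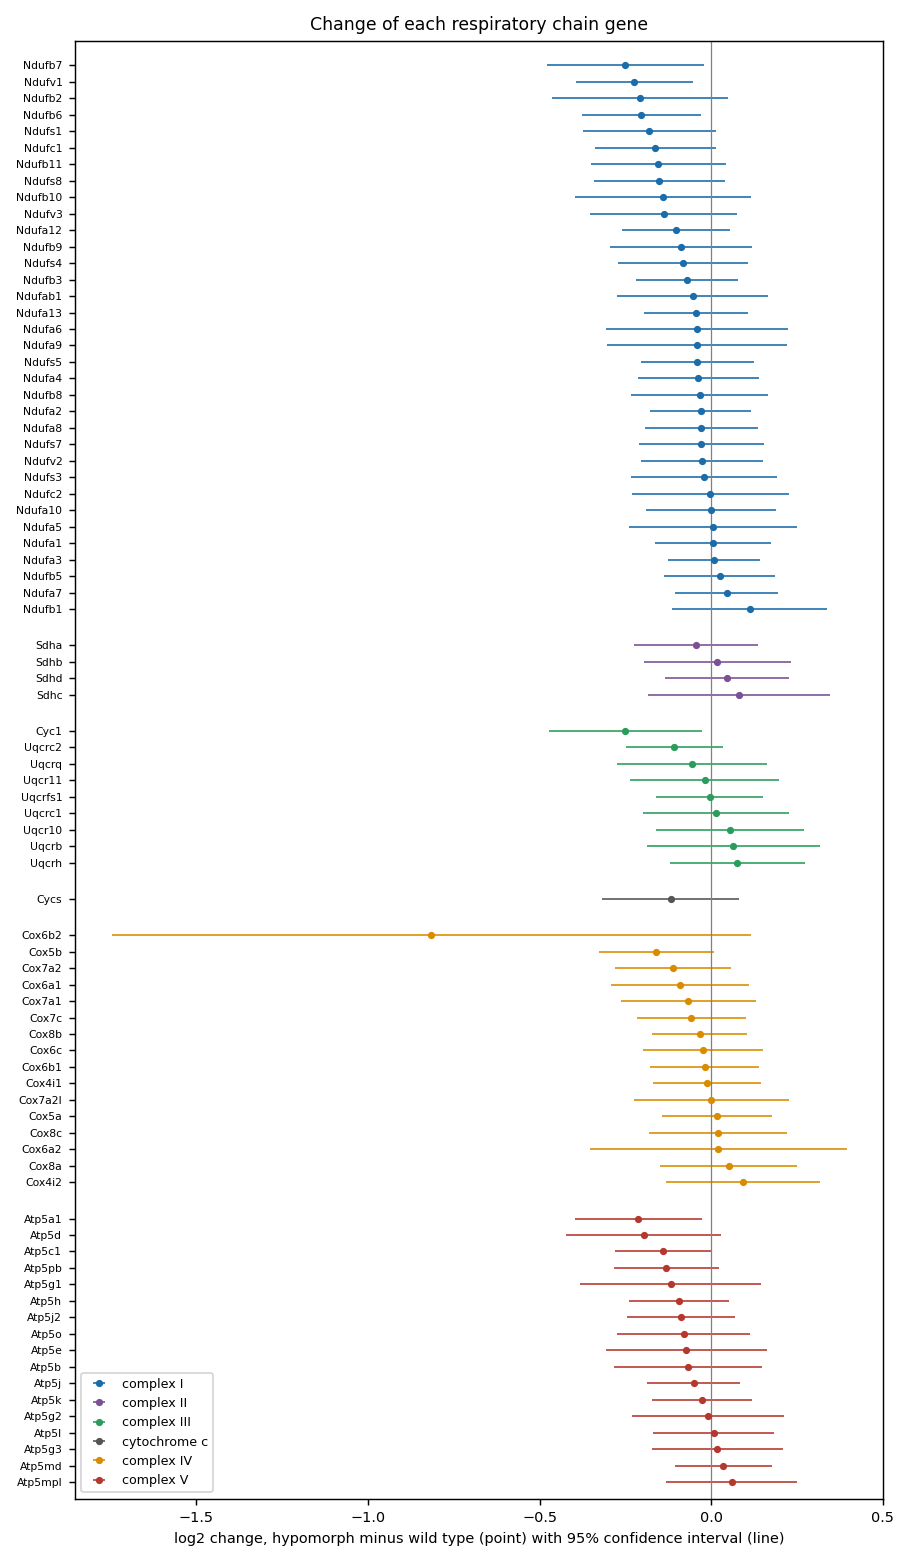
Log2 change, hypomorph minus wild type (horizontal axis), of each of the 81 genes (vertical axis, sorted within complex), with points for the estimate and lines for the 95% confidence interval from limma. In complex I, 28 of 34 points lie left of 0, in complex II 1 of 4, and Cox6b2 in complex IV has the widest interval, from -1.75 to 0.12.

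Complex II, the succinate dehydrogenase, had 1 of 4 genes below 0 in the hypomorph and a median change of 0.03. Its array medians were -0.02, 0.09, -0.10 and 0.03 in wild type, against 0.19, -0.02 and -0.04 in the hypomorph, so that hypomorph replicate 1 was the highest array and the other hypomorph arrays lay inside the wild-type range. The membrane anchor Sdhc read 8.37, 8.55, 8.22 and 8.55 in wild type, against 8.70, 8.43 and 8.39 in the hypomorph (change 0.08, interval -0.18 to 0.35). The other anchor, Sdhd, had a change of 0.05 (-0.14 to 0.23) and the iron-sulfur subunit Sdhb one of 0.02 (-0.19 to 0.23). Only the flavin subunit Sdha, which oxidizes succinate, was below 0, at -0.04 (-0.22 to 0.14), with 9.79, 10.05, 9.87 and 9.95 in wild type, against 9.90, 9.90 and 9.82 in the hypomorph. All 4 genes had overlapping groups. The median of the complex turned to -0.04 without hypomorph replicate 1 and to 0.00 without wild-type replicate 3. The difference between complex II and the other complexes was not tested.

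Complex III, the cytochrome bc1 complex, had 5 of 9 genes below 0 and a median of 0.00. Array medians were 0.07, 0.02, -0.06 and -0.02 in wild type, against 0.07, -0.06 and -0.07 in the hypomorph, with overlap. Within it, Cyc1, the cytochrome c1 subunit that hands electrons to cytochrome c, had the lowest change. It read 9.32, 9.43, 9.18 and 9.39 in wild type, against 9.02, 9.25 and 8.97 in the hypomorph. Hypomorph replicates 1 and 3 lay below every wild-type array, and replicate 2 lay above wild-type replicate 3. The means were 9.33 ± 0.112 (SD, n = 4) and 9.08 ± 0.148 (SD, n = 3), and the change was -0.25 (-0.47 to -0.03, limma unadjusted p = 0.0325, adjusted p = 0.644).

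Uqcrc2, a core protein that carries no redox centre, read 10.60, 10.56, 10.65 and 10.58 in wild type, against 10.54, 10.49 and 10.44 in the hypomorph. Its groups did not overlap, although the change was only -0.11 (-0.25 to 0.03), and a second probe set had a change of -0.04. The Rieske iron-sulfur subunit Uqcrfs1, which with Cyc1 and the mitochondrially encoded cytochrome b does the electron transfer, had a change of 0.00 (-0.16 to 0.15). It read 10.03, 9.94, 9.93 and 9.94 in wild type, against 10.05, 9.90 and 9.92 in the hypomorph, so the highest value came from hypomorph replicate 1. Among the small subunits, Uqcrh had a change of 0.08, Uqcrb of 0.06 and Uqcrq of -0.06, all with overlapping groups. The other 3 genes of the complex, Uqcrc1, Uqcr10 and Uqcr11, ran from -0.02 to 0.05. Further, dimmer probe sets of Uqcr10 had changes of 0.315 and 0.14, with overlapping groups. Cyc1 and Uqcrfs1, both of the electron path, had changes of -0.25 and 0.00, and this difference was not tested.

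Cytochrome c, the mobile carrier encoded by Cycs that also takes part in apoptosis, read 10.97, 11.21, 11.02 and 11.04 in wild type, against 10.93, 11.06 and 10.84 in the hypomorph. Hypomorph replicates 1 and 3 lay below all wild-type arrays and replicate 2 above 3 of them. The change was -0.12 (-0.32 to 0.08, limma adjusted p = 0.723), and its other probe sets had changes of -0.13 and -0.09.

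**Figure D3:**
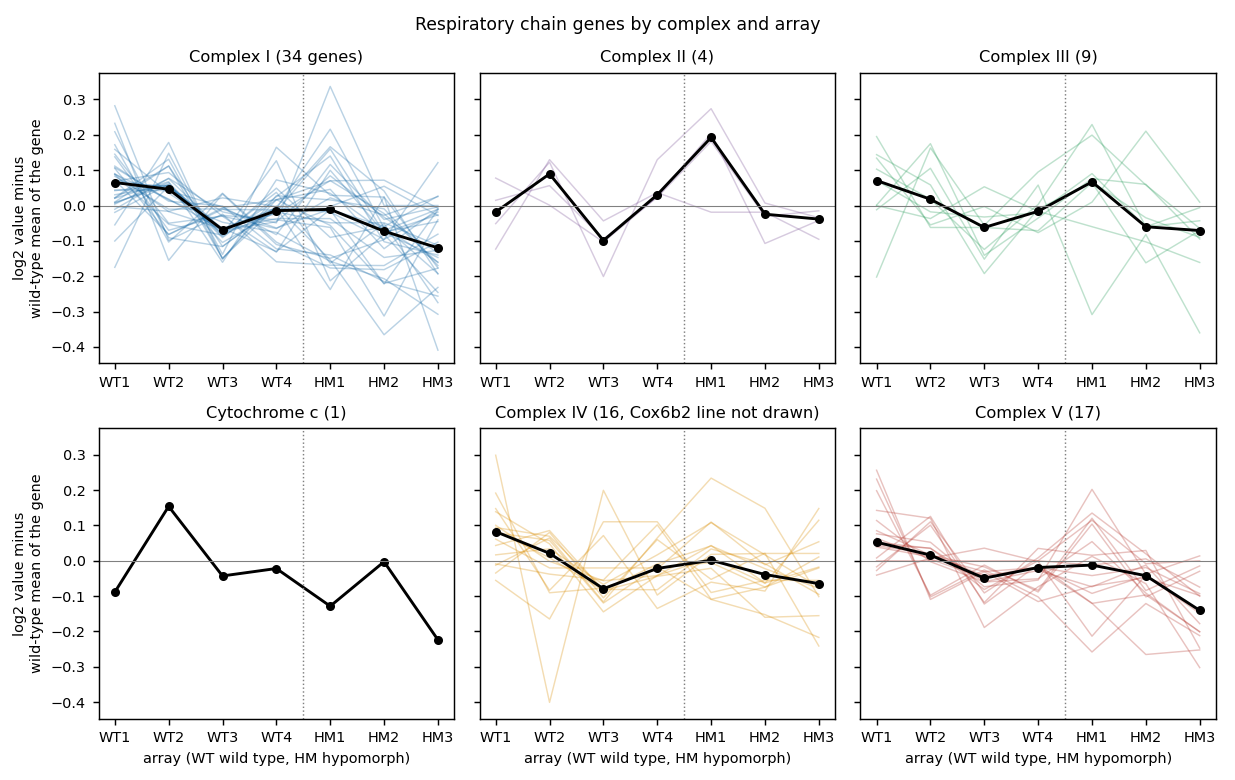
Log2 value minus the wild-type mean of the gene (vertical axis) on each array (horizontal axis, WT wild type and HM hypomorph), with a thin line for each gene, a thick black line for the median of the complex, and the lines serving only to join 1 gene's values. Hypomorph replicate 3 has a median of -0.12 in complex I and -0.14 in complex V, and hypomorph replicate 1 one of 0.19 in complex II.

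Complex IV, cytochrome c oxidase, had 10 of 16 genes below 0 and a median of -0.02 (mean -0.07 with Cox6b2 included). Array medians were 0.08, 0.02, -0.08 and -0.02 in wild type, against 0.00, -0.04 and -0.06 in the hypomorph, all 3 within the wild-type range. Of the 10 subunits found in most tissues, 7 were below 0. Cox5b, a nuclear subunit on the matrix side, read 12.37, 12.35, 12.17 and 12.28 in wild type, against 12.18, 12.14 and 12.08 in the hypomorph. The groups overlapped only in that wild-type replicate 3 lay just below hypomorph replicate 1, and the change was -0.16 (-0.33 to 0.01). The 3 other bright probe sets of Cox5b had changes of -0.18, without overlap, -0.17 and -0.11. A further pair with changes of -0.08 and -0.07 was dim, the latter below the lower quartile of every array.

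The other common subunits of complex IV lay closer to 0. Cox7a2 had a change of -0.11 (-0.28 to 0.06) and Cox6a1 one of -0.09 (-0.29 to 0.11). Cox4i1, the regulatory subunit that binds ATP and ADP, had a change of -0.01 (-0.17 to 0.14) and Cox5a one of 0.02 (-0.14 to 0.18). Cox4i1 read 11.75, 11.65, 11.59 and 11.61 in wild type, against 11.69, 11.59 and 11.63 in the hypomorph, which overlapped throughout. The other 9 genes of the complex, 5 of them below 0, ran from -0.07 (Cox7a1) to 0.05 (Cox8a).

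The tissue-restricted isoforms of complex IV were mostly dim. A total of 73 of the 81 genes lay above the upper quartile of every array, and the other 8 were Ndufb1, Cox7c and the 6 isoforms Cox4i2 (lung), Cox6a2, Cox7a1 and Cox8b (heart and skeletal muscle), and Cox6b2 and Cox8c (testis). Cox7a1, at 2.88 in wild type, against 2.82 in the hypomorph, was the only one below the lower quartile of every array. Cox4i2 had 4.60 and 4.69 (change 0.09), Cox8b 4.25 and 4.22, Cox6a2 5.02 and 5.04, and Cox8c 5.30 and 5.32. Ranks among such dim values carry little. Apart from level, some arrays shared an identical value in 23 of the 81 genes, bright ones such as Cox5a and Ndufb11 among them. Over all 12393 genes this held for 5984.

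Cox6b2, which encodes an isoform of a subunit on the intermembrane side of the complex, was the exception, with the largest difference of the 81 genes. It read 7.87, 8.13, 7.60 and 7.47 in wild type, against 6.57, 8.03 and 6.26 in the hypomorph. Hypomorph replicates 1 and 3 stood far below every other array, and replicate 2 lay near the top of the wild-type range. The means were 7.77 ± 0.289 (SD, n = 4) and 6.95 ± 0.947 (SD, n = 3), and the change was -0.82 (-1.75 to 0.12, limma unadjusted p = 0.0777, adjusted p = 0.648). Leaving out hypomorph replicate 2 gave -1.36, and leaving out replicate 3 gave -0.47. The ubiquitous partner gene Cox6b1 had a change of -0.02 (-0.18 to 0.14).

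The erythroid and proliferation markers had the same low arrays as Cox6b2. The 8 measured erythroid markers of 10 listed, genes of red cell precursors that the spleen of a transplanted mouse can hold, had array medians of 0.13, 0.46, -0.32 and -0.20 in wild type, against -0.83, 0.60 and -1.95 in the hypomorph. The log2 of their summed signal ran from 12.22 to 12.98 in wild type and from 10.93 to 12.78 in the hypomorph. The 9 measured proliferation markers of 10 listed had array medians of 0.03, 0.06, -0.06 and -0.03 in wild type, against -0.43, -0.02 and -0.65 in the hypomorph. None of either list lay below the lower quartile on every array. Hypomorph replicates 1 and 3 were the lowest arrays in Cox6b2 and in both lists, and hypomorph replicate 2 was within or above the wild-type range in Cox6b2 and the erythroid list. Other lists ran otherwise, the 6 B cell markers having -0.68, -0.33 and 0.21 on the hypomorph arrays. Hypomorph replicates 1 and 3 also lay below replicate 2 in Ndufs1, Ndufc1, Ndufb2, Cyc1 and Cycs. These are examples and not a group apart. Atp5pb, Atp5c1, Atp5h and Uqcrh, the last with a change of 0.08, had replicate 2 highest too. In Ndufv1, Ndufb6 and Ndufb7, replicate 1 lay above replicate 2. The part of these cells in the results of Cox6b2 and of the other genes was not tested.

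**Figure D4:**
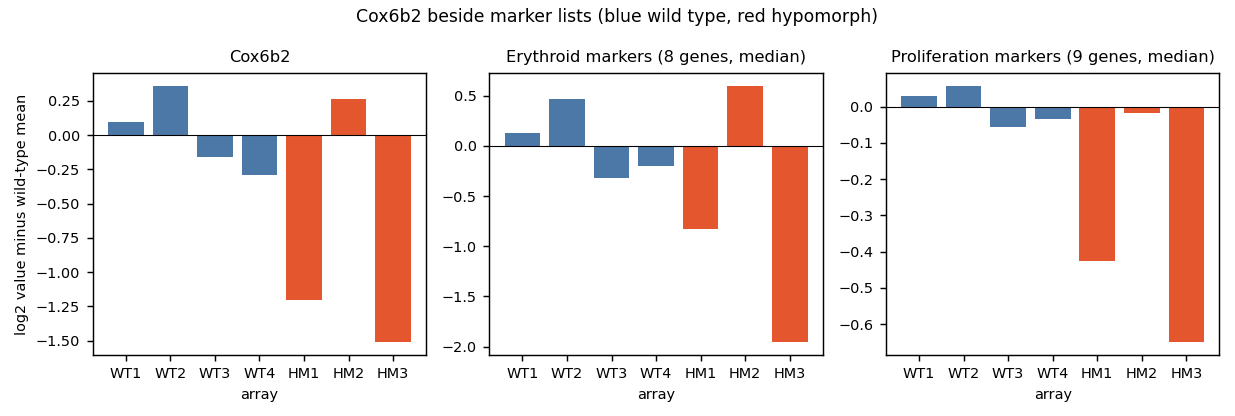
Cox6b2, the median of 8 erythroid markers and the median of 9 proliferation markers on each array, as log2 value minus the wild-type mean (vertical axes, each with its own scale), with bars in blue for wild type and red for hypomorph. In all 3 panels hypomorph replicates 1 and 3 are the lowest bars, at -0.83 and -1.95 for the erythroid markers.

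Complex V, the ATP synthase, had 13 of 17 genes below 0 and a median of -0.07. This was -0.03 without hypomorph replicate 3 and -0.10 without wild-type replicate 3. Array medians were 0.05, 0.02, -0.05 and -0.02 in wild type, against -0.01, -0.04 and -0.14 in the hypomorph, so that only hypomorph replicate 3 lay outside the wild-type range. By role, again grouped after the values were seen, all 5 genes of the catalytic F1 head had changes below 0 (median -0.14), as did all 4 of the peripheral stalk (median -0.09). The 3 c-ring genes, of which 2 were below 0, had a median of -0.01, and the 5 other membrane subunits, of which 2 were below 0, had one of 0.01. Whether the head and the membrane part differ was not tested.

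In the F1 head, Atp5a1, the alpha subunit, read 11.12, 11.24, 10.99 and 11.11 in wild type, against 11.00, 10.85 and 10.86 in the hypomorph. Hypomorph replicate 1 and wild-type replicate 3 met, and the others were apart. The means were 11.12 ± 0.102 (SD, n = 4) and 10.90 ± 0.0803 (SD, n = 3), with a change of -0.21 (-0.40 to -0.03, limma unadjusted p = 0.0293, adjusted p = 0.644), and its other probe sets had changes of -0.08 and -0.05. The beta subunit Atp5b, which holds the catalytic sites together with it, had a change of -0.07 (-0.28 to 0.15), with 11.17, 11.29, 11.07 and 11.23 against 11.21, 11.22 and 10.94. Only hypomorph replicate 3 was below the wild-type range there.

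Atp5c1, the gamma subunit of the rotating stalk, read 11.50, 11.47, 11.41 and 11.44 in wild type, against 11.33, 11.36 and 11.25 in the hypomorph. The groups did not overlap, and the change was -0.14 (-0.28 to 0.00, limma adjusted p = 0.644). Its other, dim probe set had a change of -0.07. Atp5d, the delta subunit, read 11.41, 11.07, 11.15 and 11.07 against 10.92, 11.05 and 10.96, with wild-type replicate 1 far above the rest. Its groups did not overlap, by a margin of hypomorph replicate 2 against wild-type replicates 2 and 4, and the change of -0.20 (-0.42 to 0.03) was -0.12 without wild-type replicate 1. Its second probe set had a change of -0.02.

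In the peripheral stalk, which keeps the head from turning, Atp5pb (subunit b) had a change of -0.13 (-0.28 to 0.02), with 11.60, 11.65, 11.68 and 11.64 in wild type, against 11.43, 11.60 and 11.50 in the hypomorph. The groups touched at wild-type replicate 1 and hypomorph replicate 2. Atp5h (subunit d) had a change of -0.09 (-0.24 to 0.05). Both probe sets of Atp5pb and of Atp5h had changes below 0. Atp5g1, one of the 3 genes for the proton-carrying c subunit, had a change of -0.12 (-0.38 to 0.15), while Atp5g2 and Atp5g3, which encode the same mature protein, had changes of -0.01 and 0.02. The other membrane subunits ran from -0.09 (Atp5j2) to 0.06 (Atp5mpl), and Atp5md had an identical value of 9.58 on all wild-type arrays.

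**Figure D5:**
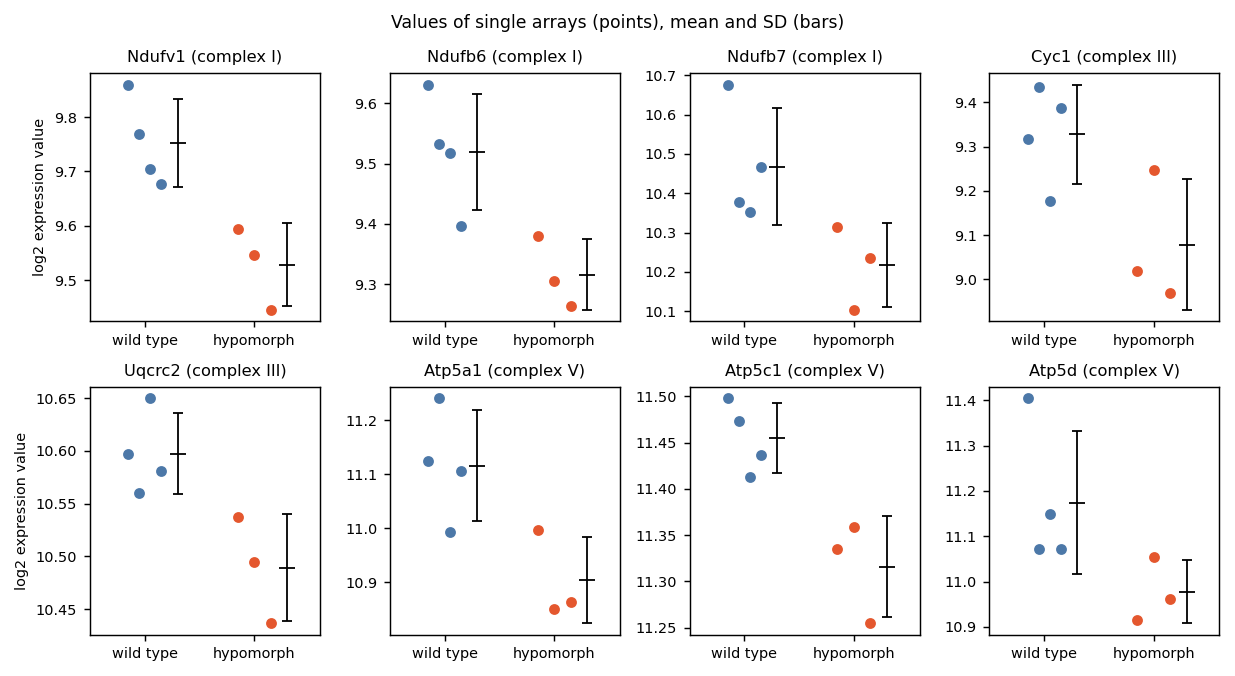
Log2 expression (vertical axes, each with its own scale) of 8 genes in single arrays, blue points for wild type and red for hypomorph, with mean and SD as black bars. The 8 are those with an unadjusted p under 0.05 or without overlap, and Cyc1 and Atp5a1 are the ones among them whose groups overlap.

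Agreement between probe sets was limited. Of the 45 genes with several probe sets, 31 had the same sign in all of them (23 below 0) and 14 had both signs. Of the 73 further probe sets, 46 had a change below 0, against 49.3% of all probe sets tested. An unadjusted limma p under 0.05 was reached by 4 in the lower direction (2 of Ndufv2 and 1 each of Ndufb9 and Cox5b), against 3.34%, and by 0 in the higher, against 4.35%. Some further probe sets had higher changes than the one used, such as dim ones of Uqcr10 (0.315), Ndufab1 (0.17) and Cox8a (0.15). Their groups overlapped. A total of 12 genes were read from a probe set whose name ends in _s_at and 5 from one in _x_at. Both endings mark probe sets with probes that can also match other transcripts. The probe sets of Atp5a1, Atp5c1, Atp5d, Atp5pb and Cox5b were among them. Many respiratory chain genes have near-identical pseudogene copies, so these values are uncertain as to their source.

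Genes around the chain were read from lists of their own. For comparison, 50.8% of all genes had a change below 0, or 56.6% with dim probe sets left out. Of all probe sets, 0.0% passed. Of the assembly factors, which insert cofactors and build the complexes, 36 of 52 listed were measured, 24 had a change below 0 (median -0.03) and 0 passed in either direction. The ones with the smallest p were Foxred1 (-0.27), Ndufaf7 (-0.33) and Cmc2 (-0.27). Of the citric acid cycle and pyruvate dehydrogenase, which feed the chain, 16 of 18 were measured, 13 were below 0 (median -0.10) and 0 passed in either direction. Citrate synthase, Cs, read 10.80, 10.62, 10.55 and 10.51 in wild type, against 10.38, 10.35 and 10.35 in the hypomorph, a change of -0.26 (-0.45 to -0.07, limma adjusted p = 0.644), and its groups did not overlap. Fumarase, Fh1, had a change of -0.23 and Pdha1, of pyruvate dehydrogenase, one of -0.11.

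Regulators of mitochondrial biogenesis, 17 of 20 measured, had 12 below 0 (median -0.06) and 0 passed in either direction. The coactivator Pprc1 had a change of -0.27, the mitochondrial DNA polymerase gene Polg one of -0.16, and Tfam, which packages mitochondrial DNA, one of -0.16 with groups that did not overlap. Of the carriers and channels of the mitochondrial membranes, 9 of 12 were measured, 4 were below 0 (median 0.00) and 0 passed in either direction. The outer membrane channel Vdac1 had a change of -0.16, the phosphate carrier Slc25a3 of -0.12 and Vdac3 of -0.15. Of the mitophagy genes, 11 of 14 were measured, 4 were below 0 (median 0.05) and 0 passed in either direction. Among them the cargo receptor Sqstm1 had a change of 0.25, Bnip3 one of 0.41 and Nipsnap1 one of -0.39, and Bnip3 read 7.10, 7.46, 7.41 and 7.19 in wild type, against 8.08, 7.30 and 7.71 in the hypomorph, with hypomorph replicates 1 and 3 above all wild-type arrays.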

How the data were processed

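RNA of 7 arrays (Affymetrix Mouse430A, 100 ng total RNA each) was measured. The deposited file holds log2 values, 1 for each probe set on each array, made by the authors with Affymetrix Power Tools per the submitters' processing notes. The sources used here do not state its version, the summary method, the background correction or the normalization. The nearly equal quartiles of the arrays show that they had been normalized to each other.

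Of 22690 probe sets, 64 controls and 1 without a value were left out. Of the rest, 20379 named 1 gene, 691 several and 1555 none. Symbols were updated by Entrez identifier from RefSeq genes of GRCm38.p6, where 20350 were found. The array files name no build, so only promoter positions are given, from RefSeq.

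The test between genotypes was limma (version 3.58.1, under R 4.3.3), with lmFit, eBayes and 2 group means without a block, over 22625 probe sets, with Benjamini-Hochberg adjustment and a threshold of 0.05. The step was tested on simulated data with 200 of 22625 probe sets changed. It recovered 37.6% of log2 changes of 0.5, 78.7% of 1 and 97.3% of 2. Smaller changes were not simulated. Medians over complexes were given without a test. Counting and plotting used Python 3.11.15 with pandas 2.3.3 and matplotlib 3.10.9.

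The genes, lists and motifs were chosen with earlier results of these data known. The rule named, in each complex, up to 5 genes of smallest p, the catalytic subunits, Cycs and genes without overlap, 30 in all. In each further list it named up to 3 of smallest p.

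Alternatives were median centring, quantile normalization, trend and robust settings, array weights, the replicate number as a block, 32 added before the log, dim probe sets left out, the mean over probe sets, the mean over genes, Ndufa4 in complex IV, and each array left out in turn. The complex IV median without restricted isoforms was added after seeing the data.

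Further marker lists had these median changes: T cell 0.03, B cell -0.26, plasma cell 0.42 and pancreatic acinar -2.12.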

Additional observations from a re-analysis of the deposited data

Results flagged for a closer look

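Dixon's criterion for a single array far from the others was applied to the 4 wild-type values of 35 quantities (the 30 named genes and the medians of the 5 complexes), and 3 were marked. Chance marks about 1 in 20 such groups. Uqcrq, a small subunit of complex III, read 10.06 on wild-type replicate 1 against 9.79 to 9.80 on the other wild-type arrays. The Rieske subunit Uqcrfs1 read 10.03 on the same array against 9.93 to 9.94. Cox5a, a subunit of complex IV, read 11.59 on wild-type replicate 3 against 11.68 to 11.69.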

How the results depend on the processing

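The count of respiratory chain genes past the adjusted threshold was 0 under every alternative run. The number lower at unadjusted p under 0.05 (5 as reported) was 12 with 32 added before the log (3.93% of all genes), 3 with array weights (4.28%), 3 with median centring (3.45%) and 1 with the mean over probe sets (3.13%). With an array left out it ranged from 0 (without hypomorph replicate 3, 3.52%) to 7 (without hypomorph replicate 2, 7.85%). The number without overlap (6 as reported) was 4 with the mean over probe sets (5.65% of all genes). It was 7 with median centring (5.46%) and with quantile normalization (6.75%). With an array left out it ranged from 6 (without wild-type replicate 4, 8.09%) to 16 (without hypomorph replicate 2, 22.2%). The number below 0 ranged from 47 to 71. The medians of the complexes moved by less than their SD between arrays, which at 0.0544 to 0.103 was mostly larger than the medians themselves. With an array left out, complex I ranged from -0.0908 to -0.0283 and complex V from -0.0997 to -0.0264. The mean over genes in place of the median was -0.07 in complexes I, IV and V, 0.03 in II and -0.03 in III, and with Ndufa4 in complex IV the medians were -0.04 in I and -0.02 in IV. The median of complex III was above 0 with quantile normalization (0.0021) and array weights (0.0248) and without wild-type replicates 1 (0.0143) or 2 (0.0002) or hypomorph replicate 3 (0.0162), and that of complex IV with array weights (0.0031) and without wild-type replicate 1 (0.0083).

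No label pairs the arrays. Same-numbered arrays had correlations of their deviations from the group means of 0.102, 0.0977 and 0.339, not all above 0.1. Differently numbered arrays ran from -0.256 to 0.207. These values do not settle whether the arrays were paired. With the replicate block, to which wild-type replicate 4 adds nothing, 62 genes were below 0 (52.2% of all genes), 5 were lower at unadjusted p under 0.05 (4.5%) and 0 passed, with a median of -0.04.

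Of the 30 named genes, 21 kept their direction under the alternatives run, among which Cox4i2 had no value with dim probe sets left out. Turned signs were Uqcrfs1 (0.0218 with array weights, 0.0021 with quantile normalization, -0.0516 to 0.0237 with an array left out) and Cox4i1 (0.0118 with array weights, -0.0404 to 0.0209). With an array left out, ranges spanned 0 for Sdhc (-0.0137 to 0.14), Sdhd (-0.0226 to 0.0831), Sdhb (-0.0746 to 0.0808), Uqcrb (-0.0033 to 0.13), Cox5a (-0.0286 to 0.0622), Atp5b (-0.12 to 0.0222) and Uqcrq (-0.12 to 0.0091). The cause was not tested. Complex V without its inhibitory factor was not run, since the symbols do not include that gene.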
